A study of Mus musculus with 6 samples.

Results

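The genes described here encode the inducible catalytic subunits of the immunoproteasome (Psmb8, Psmb9 and Psmb10), the subunits of its PA28 activator (Psme1 and Psme2), the peptide transporter of the endoplasmic reticulum (Tap1 and Tap2), the peptide editors tapasin and TAPBPR (Tapbp and Tapbpl) and the trimming aminopeptidase Erap1. They were taken by symbol from a deposited table of whole-number read counts for 23842 genes, and all 10 were found. All 10 also passed the low-count filter, as did 15039 genes in the whole table. The table covers 6 libraries of total RNA from cultured mouse embryonic fibroblasts of C57BL/6 mice, cells grown out of embryos. Of these, 3 carry the genotype label NGLY1-/- and are called knockout-labelled below, and 3 are labelled WT. Cells of both groups grew in high-glucose medium with serum and had no treatment. The deleted part of Ngly1 is not in the labels, and neither is whether the libraries of a group came from separate embryos, lines or dishes. The p-values therefore reflect the scatter among these libraries, and that scatter may be technical.

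Cells show fragments of their own proteins on MHC class I molecules. The proteasome cuts the proteins, the TAP transporter moves the peptides into the endoplasmic reticulum, aminopeptidases trim them there, and tapasin holds an empty class I molecule beside the transporter until a well-fitting peptide is bound. Under interferon, cells make 3 inducible catalytic subunits that take the places of the constitutive ones during assembly of the proteasome core, which changes the cuts that are made. NGLY1 removes N-linked glycans from proteins in the cytosol, and one of its known substrates is the product of Nfe2l1, a transcription factor of constitutive proteasome genes.

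Promoter sequence was available from RefSeq (GRCm38.p6) for 8 of the 10 genes, as windows reaching 250 bases upstream and 50 bases downstream of a transcript start. Psme2 has 2 such windows, which gives 9. Windows were searched on both strands for the core of the interferon-stimulated response element (GAAA, any pair of bases, GAAA), the interferon-gamma activated palindrome (TTCNNNGAA), a kappa B sequence (GGGA, any base, TTTCC), the core of the antioxidant response element read by NFE2L1 and NFE2L2 (TGACNNNGC), and the GC box (GGGCGG). The interferon-stimulated core was present for Psme1 and Erap1, in 2 of 9 windows, against 3.44% of all 32851 windows in the table. The palindrome was present for Psmb8, in 1 of 9 windows, against 8.30% of all windows. The kappa B sequence was in 0 of 9 windows (0.411% of all) and the antioxidant core in 0 of 9 windows (12.4% of all). Of the constitutive counterparts, Psmb5 and Psmb6 had a window, and both windows held the antioxidant core. A match is only a description of the letters, and so is its absence. The windows of Psmb9 and Tap1 held neither the interferon-stimulated core nor the palindrome. The sites below, each 30 bases read 5′ to 3′ on the strand of its gene, are shown as examples of the matches. Capitals mark the match, which in Psme1, Erap1 and Tap1 lies on the opposite strand and is printed as its reverse complement.
Psme1 (interferon-stimulated core): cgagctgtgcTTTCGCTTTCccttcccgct
Erap1 (interferon-stimulated core): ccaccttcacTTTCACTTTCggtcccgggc
Psmb8 (palindrome): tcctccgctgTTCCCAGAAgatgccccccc
Psmb5 (antioxidant core): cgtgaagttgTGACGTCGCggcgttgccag
Psmb6 (antioxidant core): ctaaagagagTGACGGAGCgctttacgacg
Psmb9 (GC box): tgcgcgatgatgGGGCGGggcctcagtctg
Tap1 (GC box): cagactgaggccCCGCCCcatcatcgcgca

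The Psme1 site lies at chr14:55578493-55578522 on the plus strand and the Erap1 site at chr13:74639839-74639868 on the plus strand. Position 1 is the transcript start of each window. The match runs from 10 to 19 in Psme1, inside the first exon of the RefSeq transcript, and from -4 to 6 in Erap1. The annotated Erap1 and Psmb6 genes start farther upstream, at 74639573 and 70525324, so their windows use a later transcript start. The Psmb8 site is chr17:34198088-34198117 on the plus strand, with its match at -97 to -89. The Psmb5 site is chr14:54618023-54618052 on the minus strand (match at -47 to -39), and the Psmb6 site is chr11:70525338-70525367 on the plus strand (match at -9 to -1). The Psmb9 and Tap1 sites are the same 30 base pairs read from either strand, chr17:34187368-34187397. These genes run in opposite directions from starts with 225 bases between them, so this GC box lies in the stretch they share. The GC box was in 7 of 9 windows, those of 6 genes, against 35.7% of all windows and 60.7% of the windows of tested genes. The Psmb6 window held a GC box as well.

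Library depth was 33007239 to 37841558 counts in the knockout-labelled libraries and 27323577 to 37790710 counts in the WT libraries. Ribosomal RNA genes took 0.215% to 5.25% of the counts in the knockout-labelled libraries and 1.55% to 3.95% in the WT libraries, the highest in replicate 3 of each group. For Ngly1, the knockout-labelled libraries held 618, 420 and 457 counts and the WT libraries 668, 632 and 307 (adjusted p = 0.99, edgeR quasi-likelihood test). A count over the whole gene does not show whether a part of it is missing, so the directions given here rest on the labels. Fibroblast markers were present in both groups: the summed level of 10 was 10614 to 11837 CPM (read counts scaled by library size) in the knockout-labelled libraries and 8215 to 9215 CPM in the WT libraries. Without Fn1, the sum of the other 9 was 3763 to 4313 CPM in the knockout-labelled libraries and 6119 to 6880 CPM in the WT libraries. The markers were not even between groups, since 2 rose (Fn1, fibronectin, and Dcn, decorin) and 6 fell, among them S100a4 (7.59-fold lower) and Vim (vimentin, 2.57-fold lower). Their part in the results below was not tested. Of 16 markers of leukocytes, 8 were in the table and 1 (Cd68) was tested and not called. The summed level of those 8 was 2.62 to 2.99 CPM in the knockout-labelled libraries and 2.34 to 3.81 CPM in the WT libraries. Most of it was Cd68, at 2.42, 2.56 and 2.51 CPM in the knockout-labelled libraries and 3.27, 2.31 and 1.79 CPM in the WT libraries. The others had few counts, and summed counts fell for Csf1r (7 against 22 in WT) and rose for Fcer1g (24 against 11 in WT). Ptprc (CD45), which marks leukocytes, had 0 counts in each knockout-labelled library and 3, 0 and 0 in the WT libraries. In bulk RNA, fewer cells of a type and less RNA per cell cannot be told apart.

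Of the 10 genes, 9 were higher in the knockout-labelled libraries and 0 lower at a false discovery rate of 5%, and for the same 9 every knockout-labelled library lay above every WT library. Tapbpl was the exception. The count of lower genes was 0 also at an unadjusted p of 0.05 in edgeR, with the DESeq2 test and with limma-voom. In the whole table, 60.9% of tested genes were called, 30.7% of them higher and 30.2% lower as shares of all tested genes. Groups did not overlap for 67.3% of tested genes, with the knockout-labelled libraries above for 33.8% of tested genes and below for 33.5%. The median log2 fold change was 1.55 over the 10 genes (2.93-fold) and -0.04 over all tested genes. The changes fell into a group of 3 genes that rose 16.6-fold to 20.2-fold (Psmb9, Psmb8 and Tap1) and a group of 6 that rose 1.65-fold to 3.48-fold. The summed level of the 10 genes was 1032, 985 and 953 CPM in the knockout-labelled libraries and 376, 356 and 223 CPM in the WT libraries. Scaling by library totals alone moved the median log2 fold change of all genes by -0.12 and left these 9 calls in place.

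**Figure D1:**
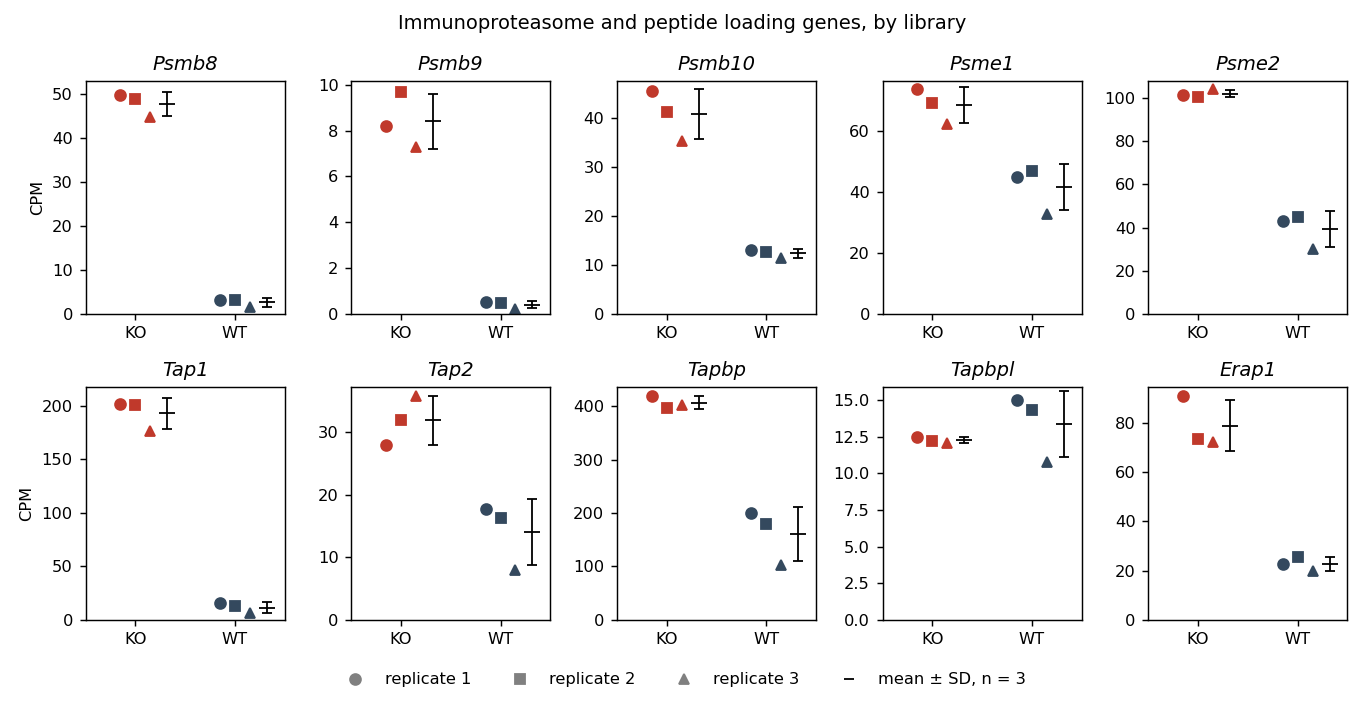
Level of each of the 10 genes in every library (y axis, CPM, starting at 0; x axis, knockout-labelled KO libraries left of WT libraries), with symbols for the replicate number and a bar for mean ± SD (n = 3). Apart from Tapbpl, the KO libraries lie above all WT libraries in each panel, and in all 10 panels the lowest WT value is that of replicate 3.

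Psmb8 (LMP7; gene ID 16913) encodes the inducible subunit with the chymotrypsin-like site. Its read count was 1689, 1603 and 1586 in the knockout-labelled libraries and 40 to 127 in the WT libraries. As levels these were 49.8, 48.8 and 44.7 CPM against 3.12, 3.21 and 1.46 CPM in WT. The knockout-labelled libraries lay close together and far above all WT libraries, with WT replicate 3 the lowest. The log2 fold change was 4.17 ± 0.24 (SE; adjusted p = 9.16e-07, edgeR quasi-likelihood test, as for every adjusted p below).

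Psmb9 (LMP2; gene ID 16912), the inducible subunit that replaces the caspase-like one, was the least abundant of the 3 subunit genes, also per length. Counts were 278, 318 and 259 in the knockout-labelled libraries and 21, 18 and 6 in the WT libraries, so the WT level of 0.399 ± 0.158 CPM (SD, n = 3) rests on few reads. Its log2 fold change, 4.33 ± 0.29 (SE; adjusted p = 1.37e-06), was the highest of the 10 genes. Psmb10 (MECL-1; gene ID 19171), the inducible form of the trypsin-like subunit, rose less. It measured 45.5, 41.3 and 35.4 CPM in the knockout-labelled libraries and 12.9, 12.7 and 11.3 CPM in the WT libraries, a log2 fold change of 1.73 ± 0.13 (SE; adjusted p = 2.36e-06). Its WT libraries differed little from each other, with a coefficient of variation of 7.08% against 37.9% for Psmb8 and 39.6% for Psmb9.

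Of the 3 constitutive counterparts, 0 were called higher, and 0 also at an unadjusted edgeR p of 0.05, with the DESeq2 test and with limma-voom. Psmb5, the gene replaced by Psmb8, measured 95.7 ± 7.54 CPM in the knockout-labelled libraries and 90.6 ± 5.75 CPM in the WT libraries (SD, n = 3 each), a log2 fold change of 0.08 (adjusted p = 0.498) that was -0.04 when scaled by library totals only. Psmb7, replaced by Psmb10, measured 151 ± 10.1 CPM in the knockout-labelled libraries and 151 ± 19.3 CPM in the WT libraries (adjusted p = 0.975). Psmb6, replaced by Psmb9, was lower, with 109 ± 15.1 CPM against 139 ± 10.4 CPM in WT and a log2 fold change of -0.36 ± 0.12 (SE; adjusted p = 0.022). It no longer passed when knockout replicate 2, knockout replicate 3, WT replicate 2 or both libraries numbered 3 were left out, with an edgeR adjusted p of 0.065 to 0.112.

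The ratio of each inducible gene to the one it replaces needs no scaling between libraries. Per exon base, Psmb8 stood at 0.315, 0.264 and 0.253 of Psmb5 in the knockout-labelled libraries and at 0.0192, 0.0183 and 0.00948 of it in the WT libraries. Psmb9 stood at 0.0394, 0.0517 and 0.0464 of Psmb6 in the knockout-labelled libraries and at 0.00239, 0.00186 and 0.000898 in the WT libraries. Psmb10 stood at 0.256, 0.234 and 0.225 of Psmb7 in the knockout-labelled libraries and at 0.0864, 0.0744 and 0.0585 in the WT libraries. The groups did not overlap for any of the 3 ratios, and in every library the inducible gene stayed below the constitutive one. With the NGLY1-/- label the ratio was higher by 18.5-fold for Psmb8 over Psmb5, 28.7-fold for Psmb9 over Psmb6 and 3.30-fold for Psmb10 over Psmb7. In exact two-sided permutation tests each gave p = 0.1, the smallest that 3 libraries against 3 allow, and p = 0.1 after adjustment over the 3 ratios.

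**Figure D2:**
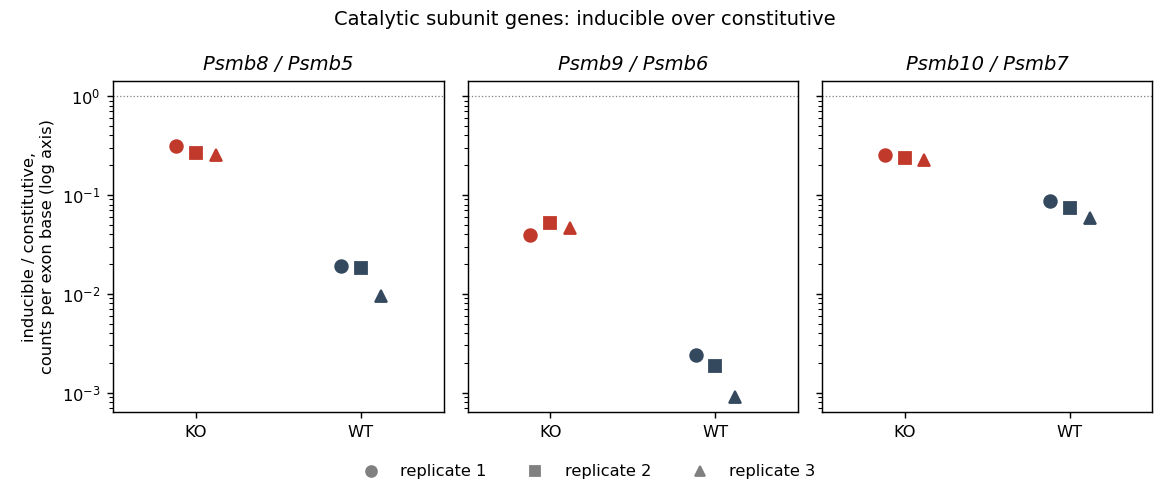
Inducible over constitutive catalytic subunit gene in each library (y axis, ratio of counts per exon base, log axis; dotted line at 1; x axis, KO left of WT; symbols give the replicate number). All 18 ratios lie below 1, and the KO libraries lie above the WT libraries in each panel.

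The 11 core subunit genes shared by both kinds of proteasome were higher in 0 cases and lower in 4, with a median log2 fold change of -0.04. The count of higher ones was 0 also at an unadjusted edgeR p of 0.05, with the DESeq2 test and with limma-voom. The 4 lower ones were Psma5 (log2 fold change -0.74), Psmb1 (-0.58), Psma1 (-0.39) and Psma4 (-0.30, adjusted p = 0.041). All of them encode structural subunits of the core. The Psma4 call was lost in 7 of 15 alternatives, with an adjusted p of 0.0514 to 0.202. Without WT replicate 3, 1 gene was higher, and without both libraries numbered 3, 2 were. Beside the core genes, 5 of 8 assembly and activator genes were higher and 1 was lower. They included the assembly chaperone genes Psmg2 (2.06-fold) and Psmg4 (2.64-fold) and Psmf1 (2.35-fold), which encodes the proteasome inhibitor PI31.

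Psme1 and Psme2 encode the alpha and beta subunits of PA28, a ring that caps the core and eases the passage of peptides. Psme2 (gene ID 19188) had a read count of 3444, 3310 and 3701 in the knockout-labelled libraries and of 1751, 1751 and 819 in the WT libraries. Its level was 102 ± 1.83 CPM against 39.3 ± 8.16 CPM in WT (SD, n = 3 each), a log2 fold change of 1.38 ± 0.14 (SE; adjusted p = 2.67e-05). Psme1 (gene ID 19186) measured 73.8, 69.1 and 62.3 CPM in the knockout-labelled libraries and 44.8, 46.7 and 32.8 CPM in the WT libraries. Its log2 fold change of 0.72 ± 0.14 (SE; adjusted p = 0.00129) was the smallest of the 9. The other PA28 gene, Psme3, encodes the nuclear gamma form. It was 2.66-fold higher, with 172 ± 12.6 CPM against 64.6 ± 18.2 CPM in WT (SD, n = 3 each), and among the WT libraries it was highest, not lowest, in replicate 3. Psme4, encoding the activator PA200, was 1.41-fold lower.

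The PA28 partners were close to even in WT and not in the knockout-labelled libraries. Psme2 stood at 1.57, 1.66 and 1.91 of Psme1 per exon base in the knockout-labelled libraries and at 1.09, 1.10 and 1.04 in the WT libraries. The TAP partners differed further. Tap1 stood at 8.42, 7.33 and 5.75 of Tap2 in the knockout-labelled libraries and at 1.06, 0.893 and 0.876 in the WT libraries. The groups did not overlap in either ratio, and the difference was 1.58-fold for PA28 and 7.54-fold for TAP. These 2 ratios were chosen after their values were seen, and each gave p = 0.1 in the exact permutation test, the smallest possible, and p = 0.1 after adjustment over both.

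Tap1 and Tap2 encode the paired subunits of the ATP-driven peptide pump. Tap1 (gene ID 21354) had a read count of 6837, 6582 and 6254 in the knockout-labelled libraries and of 654, 484 and 163 in the WT libraries. Its level was 202, 201 and 176 CPM against 16.1, 12.4 and 5.96 CPM in WT, a log2 fold change of 4.05 ± 0.31 (SE; adjusted p = 1.34e-05). GENCODE holds a Psmb9 transcript that reaches past the Tap1 start, so with no stated strand setting reads there cannot be told apart. The WT libraries differed more for Tap1 than for any other of the 10 genes (coefficient of variation 44.6%), and all of them lay far below the knockout-labelled ones. Tap2 (gene ID 21355) measured 27.9, 31.9 and 35.7 CPM in the knockout-labelled libraries and 17.7, 16.2 and 7.94 CPM in the WT libraries. Its log2 fold change was 1.18 ± 0.26 (SE; adjusted p = 0.0039), and 0.83 without both libraries numbered 3.

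Tapbp (gene ID 21356), encoding tapasin, was the most abundant of the 10 genes in both groups, also per length. It measured 420, 397 and 402 CPM in the knockout-labelled libraries and 200, 179 and 103 CPM in the WT libraries, a log2 fold change of 1.34 ± 0.21 (SE; adjusted p = 0.000621). Tapbpl (gene ID 213233) encodes TAPBPR, a tapasin relative that edits peptides outside the loading complex. Both Tapbp and Tapbpl overlap a long noncoding RNA gene in the annotation. Tapbpl measured 12.5, 12.2 and 12.1 CPM in the knockout-labelled libraries, which lay inside the range of the WT libraries, at 15.0, 14.3 and 10.8 CPM. The log2 fold change was -0.13 ± 0.15 (SE; adjusted p = 0.479). Erap1 (gene ID 80898), which trims peptides to the length class I molecules hold, measured 90.9, 73.3 and 72.4 CPM in the knockout-labelled libraries and 22.5, 25.7 and 19.7 CPM in the WT libraries. Its log2 fold change was 1.80 ± 0.13 (SE; adjusted p = 2.48e-06). The annotated 3' ends of Erap1 and Cast, which encodes the calpain inhibitor calpastatin, overlap, and with no stated strand setting their reads cannot be told apart there. Cast was 1.72-fold higher (adjusted p = 6.05e-05), with 31338 summed counts in the knockout-labelled libraries against 19084 in the WT libraries.

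Levels per exon length give an order among the 10 genes. In the knockout-labelled libraries Tapbp came first, with 140 ± 4.1 CPM per kb, then Psme2 (105 ± 1.88), Tap1 (65.3 ± 4.85) and Psme1 (61.5 ± 5.19 CPM per kb; SD, n = 3 each). The ranges of mean ± SD of Tap1 and Psme1 overlapped. Such ranges take no account of the genes being measured in the same libraries, so overlap does not show that levels were equal. Psmb10 (31.1 ± 3.89 CPM per kb) and Psmb8 (29.4 ± 1.66) followed, also with overlapping ranges. Behind them came Erap1 (14.0 ± 1.85), Tap2 (9.25 ± 1.14), Psmb9 (6.21 ± 0.893) and Tapbpl (5.21 ± 0.091). In the WT libraries Tapbp (55.4 ± 17.7 CPM per kb), Psme2 (40.3 ± 8.36) and Psme1 (37.3 ± 6.78) came first, with overlapping ranges of mean ± SD. Psmb10 stood at 9.38 ± 0.664 CPM per kb and Tapbpl at 5.68 ± 0.967. Tap2 (4.06 ± 1.53), Erap1 (4.01 ± 0.53) and Tap1 (3.89 ± 1.73) had overlapping ranges, and Psmb8 (1.60 ± 0.604) and Psmb9 (0.295 ± 0.117 CPM per kb) came last. The range of Tapbpl overlapped those of Tap2 and Tap1 but not that of Erap1, and the range of Psmb8 just overlapped that of Tap1. Tap1 thus stood near the top in the knockout-labelled libraries and near the bottom in the WT libraries. Lengths were unions of annotated exons, so the order assumes that those exons were used.

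In all 10 genes the lowest WT level was that of replicate 3. Among the knockout-labelled libraries, replicate 3 was the lowest for 7 of the 10 genes, replicate 2 for 2 and replicate 1 for 1. The matching share over all tested genes was not computed for that group. The ratio of WT replicate 3 to the mean of the other two WT libraries was 0.418 for Tap1, 0.449 for Psmb9, 0.462 for Psmb8 and 0.468 for Tap2, and 0.884 for Psmb10, with a median of 0.612 over the 10 genes. Over all tested genes the median ratio was 0.992, and 42.5% were lowest in WT replicate 3. With Tapbp at 0.543, the 5 genes on chromosome 17 had the 5 lowest ratios. Of the 10 class I genes tested, 9 were lowest in it, with a median ratio of 0.611, and of 20 regulators 14 were, with a median ratio of 0.875. Of the 10 fibroblast markers 7 were lowest there too, with a median ratio of 0.785 and ratios of 0.393 for the collagen gene Col3a1, 0.444 for Dcn and 0.453 for the receptor gene Pdgfra. Of the 6 interferon and TNF receptor genes, 5 were. The 11 other core subunit genes were the opposite, with 0 lowest and 8 highest in WT replicate 3. Ribosomal RNA took 3.95% of the counts of that library, and the part of this in the ratios was not tested. Leaving it out, the log2 fold changes were 3.93 for Psmb8, 4.10 for Psmb9, 3.77 for Tap1 and 1.11 for Tapbp, and the 9 calls held. Apart from Psmb10 and Erap1, the knockout-labelled libraries varied less than the WT libraries, with coefficients of variation of 1.74% to 14.4% over the 10 genes against 7.08% to 44.6% in WT.

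**Figure D3:**
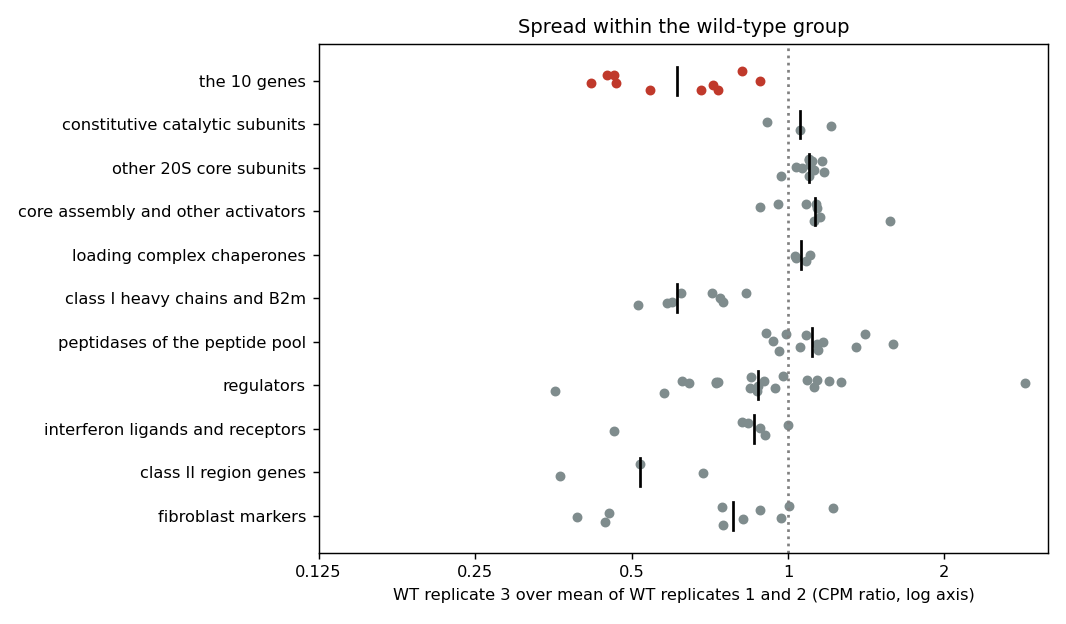
Level in WT replicate 3 over the mean of WT replicates 1 and 2 (x axis, ratio of CPM, log axis, dotted line at 1) for the tested genes of each list (rows; black bar, list median). The 10 genes described here (red) run from 0.418 to 0.884 with a median of 0.612, and genes with 0 counts in that library (H2-Q6 and H2-Q7) are not drawn.

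Of the 10 genes, 5 lie on chromosome 17, in the major histocompatibility complex. In RefSeq on GRCm38, Psmb9 (34182030 to 34187330), Tap1 (34187556 to 34197225), Psmb8 (34198195 to 34201454) and Tap2 (34204479 to 34216321) follow each other, and Tapbp lies at 33919478 to 33929290. The 3 of the 10 genes that rose most are next to each other, and Tap2, 3024 bases beyond Psmb8, rose far less. Within 500 kb of the Psmb9 start, 39 other genes were tested, of which 8 were higher and 13 lower. Large changes were not confined to antigen presentation genes, as 2 genes chosen after their values were seen show: Angptl4, encoding an inhibitor of lipoprotein lipase, at 4.94 on the log2 scale (adjusted p = 1.96e-05), and Tnxb, encoding the matrix protein tenascin-X, at -4.14 (adjusted p = 8.1e-08). In this stretch, the class II peptide loading gene H2-DMb1 was 2.27-fold higher and H2-DMa stood at 0.88 on the log2 scale (adjusted p = 0.0502), while the class I gene H2-K1 was 4.57-fold higher. H2-DMa passed in 8 of 15 alternatives. Over the 773 tested genes of chromosome 17 the median log2 fold change was -0.17, with 24.5% higher and 34.4% lower.

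**Figure D4:**
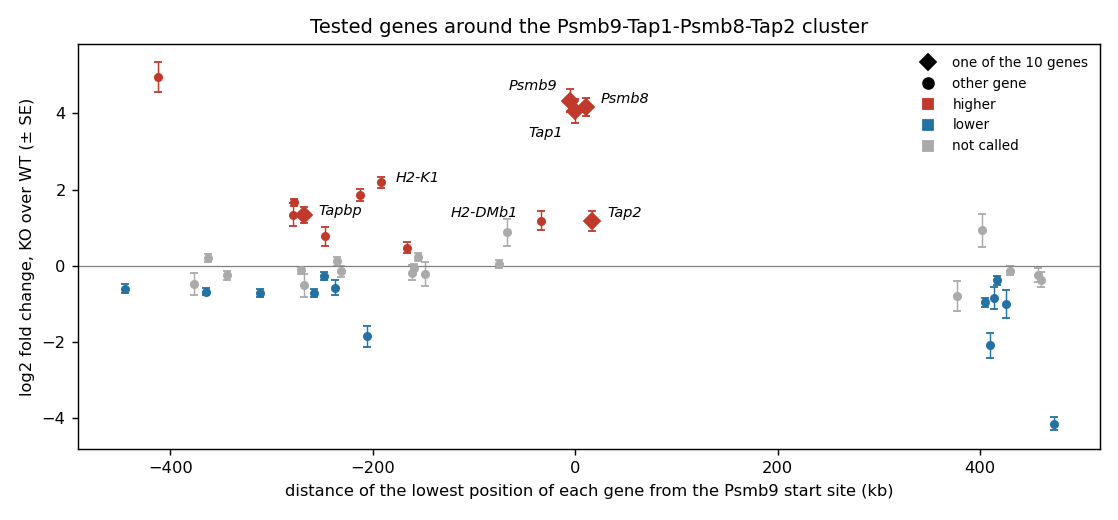
Log2 fold change (y axis, KO over WT, ± SE) of the 44 tested genes within 500 kb of the Psmb9 start site, against the distance of each gene's lowest position from it (x axis, kb). Diamonds mark the 5 of the 10 genes that lie there. Psmb9, Tap1 and Psmb8 stand together above 4 and Tap2, next to them, is at 1.18, while Angptl4, farther off, is at 4.94.

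The other genes lie apart. Psme1 (55578494 to 55581527) and Psme2 (55587440 to 55591101) flank Emc9 on chromosome 14, a subunit gene of the membrane protein insertion complex, at -1.30 on the log2 scale (adjusted p = 0.00217). The annotated ends of Psme1 and Emc9 overlap, and the summed read count of Emc9 was 191 with the NGLY1-/- label and 508 with the WT label. On the far side of Psme2 stand Rnf31, encoding the catalytic subunit of the linear ubiquitin ligase, at 1.27 (adjusted p = 2.32e-06), and Irf9, at 3.43. Psmb10 lies on chromosome 8 (105935728 to 105938392), whose 820 tested genes had a median log2 fold change of -0.14. Erap1 lies on chromosome 13 (74639573 to 74693205), where 52% of 625 tested genes were higher and the median was 0.43. Tapbpl lies on chromosome 6 (125223927 to 125231860), where 46.7% of 724 tested genes were lower and the median was -0.41. Whether these chromosome medians have a part in the values of Erap1 and Tapbpl was not tested. Over all 10 genes, 25 different neighbours that are not among them were examined, the nearest tested pair on each side, and 7 were higher and 6 lower.

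The class I molecules that receive the peptides rose as well. All 10 tested of 11 were higher, with a median log2 fold change of 2.30, including H2-D1 (5.30-fold) and B2m (5.36-fold), although near-identical heavy chain genes can exchange reads. The read count of H2-Q6 was 343, 384 and 417 in the knockout-labelled libraries and 3, 2 and 0 in the WT libraries. Of 4 genes listed with the general chaperones of the loading complex, 1 was higher and 2 were lower. The higher one, Uggt1, encodes a glucosyltransferase and not a chaperone of that complex. Pdia3 was not called (adjusted p = 0.846). Calr (calreticulin) measured 564 ± 16.5 CPM in the knockout-labelled libraries and 1077 ± 88.3 CPM in the WT libraries (SD, n = 3 each), a log2 fold change of -0.93 (adjusted p = 3.36e-05). Canx (calnexin) was 1.23-fold lower (adjusted p = 0.0222) and Uggt1, the glucosyltransferase that returns class I molecules to calreticulin, 1.35-fold higher. The Canx call was lost without knockout replicate 2 or 3, without WT replicate 2, without both libraries numbered 3 and with no low-count filter, with an adjusted p of 0.0503 to 0.115. Of the 12 cytosolic and endosomal peptidases that feed or deplete the peptide pool, 5 were higher and 5 lower. Those with the smallest p were Npepps, the puromycin-sensitive aminopeptidase gene (2.40-fold lower), Lnpep, which encodes the endosomal trimming enzyme IRAP (2.22-fold lower), the oligopeptidase gene Nln (2.10-fold higher) and the dipeptidyl peptidase gene Dpp3 (1.60-fold lower).

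Of 20 tested regulators of these genes, 12 were higher and 3 lower, with a median log2 fold change of 0.64. Nlrc5, the class I transactivator gene, measured 179, 150 and 166 CPM in the knockout-labelled libraries and 33.4, 25.4 and 18.4 CPM in the WT libraries, a log2 fold change of 2.68 ± 0.20 (SE; adjusted p = 5.77e-06). The groups lay far apart, with WT replicate 3 again lowest. The interferon signalling genes Stat2 (4.21-fold), Irf9 (10.8-fold) and Irf7 (77.4-fold) rose, and so did Irf1 (2.02-fold), an activator of class I and immunoproteasome promoters. Irf3 rose 1.30-fold (adjusted p = 0.0207), while Irf2 (adjusted p = 0.189) and Socs1 (adjusted p = 0.328) were not called. Relb, an NF-kappa B subunit gene, rose 4.40-fold. The genes that fell were Rfxap (log2 fold change -0.90), a subunit gene of the RFX factor that binds class I and class II promoters, Socs3 (-0.78), a cytokine signalling inhibitor, and Stat3 (-0.37, adjusted p = 0.0337). The Stat3 call was lost without any one library other than WT replicate 3, with an adjusted p of 0.0509 to 0.139. Nfe2l1 was 1.76-fold higher and Nfe2l2 2.30-fold higher.

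Of 5 interferon receptor genes and the TNF receptor gene Tnfrsf1a, 0 were higher and 3 lower, and the DESeq2 test and limma-voom gave the same counts. At an unadjusted edgeR p of 0.05, 1 was higher (Ifnar2). The lower ones were the receptor genes Ifngr1 (1.30-fold lower), Ifnar1 (1.23-fold lower) and Ifnlr1. Ifnar1 no longer passed without any one of knockout replicates 2 and 3 and WT replicates 1 and 2 (edgeR adjusted p 0.0692 to 0.125). The read count of Ifnlr1 was 0, 2 and 0 in the knockout-labelled libraries and 93, 59 and 24 in the WT libraries, a ratio of 0.0119 with a 95% exact counting interval of 0.00143 to 0.0436, which covers counting error only. The ligand genes in the table (Ifnb1, Ifne and Tnf) were too low to be tested, with Ifnb1 at 2, 7 and 1 counts in knockout-labelled and 0, 0 and 0 counts in WT libraries. With no low-count filter, 1 gene of this list was higher. Among the class II genes, the class II alpha chain gene H2-Aa was at 0, 0 and 0 counts in knockout-labelled and 1, 1 and 0 counts in WT libraries. The transactivator gene Ciita was at 0, 3 and 0 counts in knockout-labelled and 3, 2 and 0 counts in WT libraries. Cd74, the class II invariant chain gene, was high all the same, with 16.6, 18.3 and 18.2 CPM in the knockout-labelled libraries and 1.13, 1.08 and 0.402 CPM in the WT libraries (adjusted p = 1.27e-06).

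**Figure D5:**
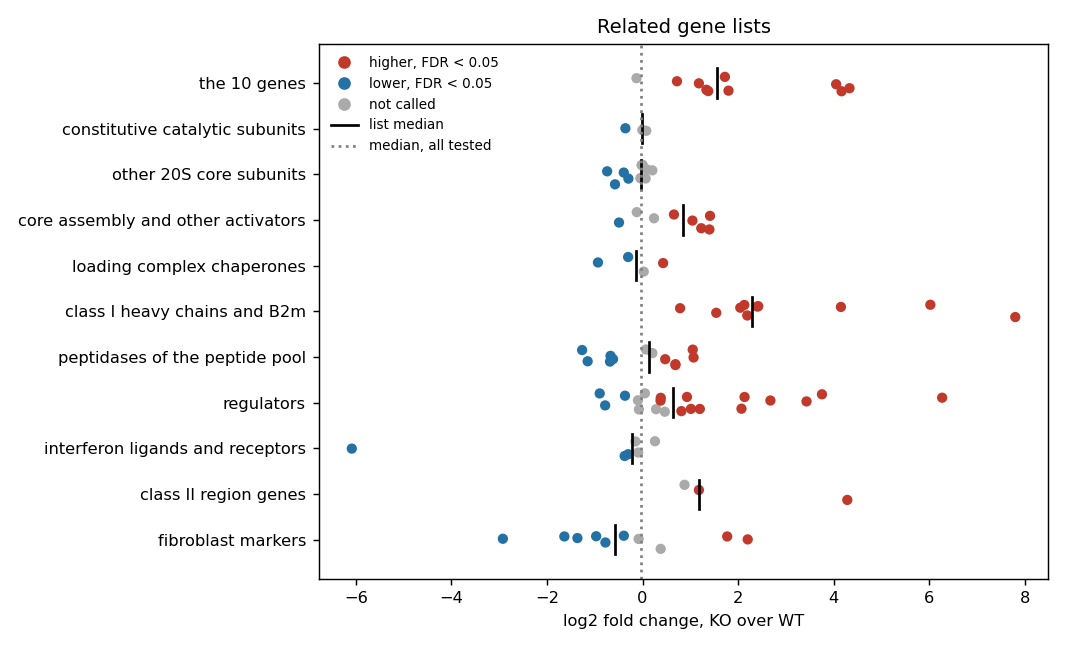
Log2 fold change (x axis, KO over WT) of each tested gene in the lists described (rows), coloured by call at a false discovery rate of 0.05, with a black bar at each list's median and a dotted line at the median of all tested genes (-0.04). Of the 10 genes, 9 lie to the right and Tapbpl lies at -0.13, and all class I genes shown lie to the right. The medians of the constitutive catalytic and other core subunit genes lie near 0, with 5 of these 14 genes called lower.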

How the data were processed

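The authors deposited 1 table of whole-number gene counts with an NCBI Gene ID for each row and a column for each of the 6 libraries, per the file headers. RNA was extracted with Trizol and made into stranded total RNA libraries, per the labels' protocols. The submitters' processing notes list STAR 2.5.1b and mm10. No source used here gives the counting program, the annotation or the strand setting. Columns were matched to samples by their titles.

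Counts were tested in R 4.3.3 with edgeR 4.0.16: filterByExpr, TMM scaling, a quasi-likelihood fit (robust) of the whole table on genotype alone, two-sided, with Benjamini-Hochberg adjustment over all 15039 tested genes at 0.05. CPM use TMM-scaled library sizes. Each SE is the fitted coefficient divided by the square root of its F statistic. Within-library ratios were compared by exact permutation. Genes were named by rule: the 10 genes, genes of fixed lists (in longer lists the 4 with the smallest p, and those against the majority), and near neighbours; 1 gene that the rule names is not reported here. Members and lists were chosen with earlier results of these data known. Libraries of a group differed by more than sampling noise (chi-square per gene 12.1 to 154). Exon lengths came from GENCODE M21 and positions and promoters from RefSeq on GRCm38. RefSeq positions were found for 97.3% of tested genes. The fit was also run on simulated data in which few genes changed, evenly up and down, with the same scatter for every gene. In these data 60.9% of tested genes were called, so that run does not give the error rate here. Alternatives used DESeq2 1.42.0 and limma 3.58.1, other filters and scalings, and left libraries out.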

Additional observations from a re-analysis of the deposited data

How the results depend on the processing

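The 9 higher calls among the 10 genes held in all 15 alternatives (limma-voom or DESeq2 in place of edgeR, DESeq2 size factors or library totals in place of TMM, no filter or a 1 CPM filter in 3 libraries, a replicate block, structural RNA genes left out, each library or both numbered 3 left out), and Tapbpl passed in none of them. The log2 fold changes stayed at 3.93 to 4.35 for Psmb8, 4.10 to 4.55 for Psmb9, 3.77 to 4.37 for Tap1 and 0.83 to 1.39 for Tap2. The log2 difference with single libraries left out was 3.88 to 4.39 for Psmb8 over Psmb5, 4.43 to 5.14 for Psmb9 over Psmb6 and 1.57 to 1.85 for Psmb10 over Psmb7. Counts that moved by over 1.5 times were these. Without both libraries numbered 3, the lower constitutive catalytic subunit genes went to 0, the higher other core subunit genes to 2, the lower loading chaperones to 1 and the higher genes of the ligand and receptor list to 1. With no low-count filter, those chaperones went to 1 and those of the ligand and receptor list to 1. With single libraries left out, these counts were 0 to 1, 0 to 1, 1 to 2 and 0 to 1 in the same order. Genes near 0 changed sign: Psmb5 to -0.038 with library totals only, Psmb7 to 0.024 with no filter, 0.0012 with the replicate block, 0.00091 with limma-voom, 0.0032 without structural RNA genes, 0.16 without both libraries numbered 3 and -0.093 to 0.106 with single libraries left out, and Ngly1 to 0.024 with no filter, 0.00085 with the block, 0.0050 without structural RNA genes and -0.178 to 0.103 with single libraries left out. The cause was not tested. No source used here says whether same-numbered libraries share more than a number. The correlation of their deviations from the group means was 0.096, 0.014 and 0.209, and not every library correlated best with its own number. The value for number 3 was the highest of any pair, while knockout replicate 3 stood at -0.138 with WT replicate 1 and -0.176 with WT replicate 2. Whether a shared batch lies behind this was not tested. With the replicate block 9253 genes were called against 9160, the 9 of 10 genes stayed higher, H2-DMa passed and Psma4 did not, and the paired log2 difference for Psmb8 over Psmb5 was 4.21 (exact sign-flip p = 0.25, the smallest possible). Depth limits Psmb9 in WT, which had 6 to 21 counts.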
